A study of Mus musculus with 2 samples.

Results

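The EGF-like ligands and ErbB receptors were followed as 10 genes in adult mouse ovary: 7 ligands (Areg, Ereg, Btc, Hbegf, Tgfa, Egf and Nrg1) and 3 receptors (Egfr, Erbb2 and Erbb3). They were chosen by symbol, as the rows of the gene and transcript tables whose Ensembl identifier, without its version, belongs to these symbols. All 10 were found, among 43346 mouse genes, with 20 of 103639 transcripts. The samples were 2 libraries, replicate 1 and replicate 2, of 1 group: whole ovary of 8-week-old C57BL/6J females, with no treatment and no altered allele named in the labels. The mice were littermates. The sample descriptions number the 2 libraries as different biological replicates, yet both cite the same donor record. It is therefore unclear whether they came from separate animals. Whether the spread between the libraries is technical or biological was not tested. Poly(A) RNA over 200 nucleotides, freed of ribosomal RNA, was read in a stranded manner as pairs of 76 bases. The design has no second group, so levels are described and the comparison made is replicate 2 against replicate 1.

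EGF-like ligands are made as membrane-bound precursors and are released by metalloproteases of the ADAM family. They bind ErbB receptors, which are tyrosine kinases that act in pairs: EGFR binds most of the ligands followed here, ERBB3 binds neuregulins and has little kinase activity of its own, and ERBB2 has no known ligand and serves as a partner. In the preovulatory follicle, luteinizing hormone induces amphiregulin, epiregulin and betacellulin in mural granulosa cells. These ligands act on EGFR in granulosa and cumulus cells, where they drive cumulus expansion and the return of the oocyte to meiosis.

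What makes a ligand of this family is the EGF module, a short stretch with 6 cysteines that pair to fold it. The coding sequence of the module is shown for 6 of the ligands because the transcript results below turn on which forms hold it. It was read from the transcripts of GENCODE M21 on GRCm38 (mm10), 5′ to 3′, with cysteine codons in capitals; each span includes the intron between its exons.
Areg (chr5:91143614-91144364, plus strand): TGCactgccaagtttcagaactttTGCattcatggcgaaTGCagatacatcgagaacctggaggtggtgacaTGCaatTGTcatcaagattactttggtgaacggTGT
Ereg (chr5:91088496-91089111, plus strand): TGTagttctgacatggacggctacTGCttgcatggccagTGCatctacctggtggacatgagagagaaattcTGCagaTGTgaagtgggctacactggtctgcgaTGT
Btc (chr5:91362421-91366197, minus strand): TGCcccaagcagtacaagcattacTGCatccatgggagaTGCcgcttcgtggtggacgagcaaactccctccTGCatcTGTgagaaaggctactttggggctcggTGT
Tgfa (chr6:86263200-86269960, plus strand): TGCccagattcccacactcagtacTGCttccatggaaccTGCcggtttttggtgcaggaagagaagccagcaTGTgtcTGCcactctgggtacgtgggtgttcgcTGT
Egf (chr3:129686322-129690850, minus strand): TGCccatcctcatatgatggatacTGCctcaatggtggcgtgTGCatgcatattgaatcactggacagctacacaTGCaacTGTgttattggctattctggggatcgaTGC
Nrg1 (chr8:31837698-31849398, minus strand): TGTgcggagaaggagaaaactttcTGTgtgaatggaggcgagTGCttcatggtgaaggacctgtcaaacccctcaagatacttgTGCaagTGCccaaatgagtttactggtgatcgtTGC
The module took 36 codons in Areg, Ereg, Btc and Tgfa, 37 in Egf and 40 in Nrg1. In Areg, Ereg, Btc and Tgfa the residues between consecutive cysteines numbered 7, 4, 10, 1 and 8. Egf had 5 in the second gap, and Nrg1 had 5 in the second gap and 13 in the third. In all 6 genes the module lay across a pair of exons, with 4 cysteine codons on the first and the remaining codons on the second. Those were exons 3 and 4 of Areg, Ereg, Btc and Tgfa, 20 and 21 of Egf, and 2 and 3 of Nrg1. A Tgfa transcript that skips the second exon therefore lacks the end of this module. Whether forms of the other genes with a different second exon encode a whole module was not tested.

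The genes lie on 7 chromosomes of mm10. Areg (ENSMUSG00000029378.4, chr5:91139599-91148432, plus strand), Ereg (ENSMUSG00000029377.4, chr5:91074622-91093646, plus) and Btc (ENSMUSG00000082361.3, chr5:91357261-91402994, minus) form a cluster with the related ligand Epgn, which spans 375.5 kb. Ereg and Areg are 45.95 kb apart. Tgfa (ENSMUSG00000029999.10) lies at chr6:86195223-86275719 on the plus strand, Egf (ENSMUSG00000028017.3) at chr3:129677565-129755316 on the minus strand, and Nrg1 (ENSMUSG00000062991.6) at chr8:31814551-32884029 on the minus strand. Hbegf (ENSMUSG00000024486.5) is on chromosome 18. Egfr (ENSMUSG00000020122.12, chr11:16752203-16918158) and Erbb2 (ENSMUSG00000062312.5, chr11:98412470-98437716) share chromosome 11 and the plus strand, and Erbb3 (ENSMUSG00000018166.8) lies at chr10:128567523-128589652 on the minus strand.

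Egfr, Tgfa and Erbb2 were the highest of the 10 genes, Erbb3, Hbegf and Areg stood between 2.33 and 6.49 TPM, and the other 4 ligands were under 1 TPM. Levels are given as TPM, an estimate of transcript abundance that corrects for transcript length, has the same total in each library and can be compared between genes. Of the 10 genes, 6 reached 1 TPM in both libraries (Tgfa, Hbegf, Areg, Egfr, Erbb2 and Erbb3), against 62.0% of all 21474 protein-coding genes. All 3 receptors were among the 6, as were 3 of 7 ligands. The libraries held 41124064 and 34930872 counts in mouse genes, and 3 counts, the limit that a count of 0 allows, correspond to 0.0730 CPM in replicate 1 and 0.0859 in replicate 2.

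Tgfa, which encodes transforming growth factor alpha, was the highest ligand, at 41.3 TPM in replicate 1 and 84.4 in replicate 2, a mean of 62.9 ± 30.5 (SD, n = 2). It was the member with the widest spread in TPM, and the transcripts behind that spread are described below. Hbegf, the heparin-binding ligand, stood at 4.78 and 4.94 TPM (4.86 ± 0.113). Areg, amphiregulin, stood at 2.33 TPM in replicate 1 on 67 counts (95% Poisson interval 51.9 to 85.1) and at 4.05 in replicate 2 on 99 counts (80.5 to 121), a mean of 3.19 ± 1.22. These intervals, and all others here, cover counting error only. Areg was thus the highest of the 3 ligands that luteinizing hormone is known to induce, and it was low beside Tgfa and every receptor on both length scales used here. The stage of the oestrous cycle was not among the sample details used here, so these levels belong to no stated stage.

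The other 4 ligands stayed under 1 TPM in both libraries. Ereg, epiregulin, stood at 0.50 TPM on 58 counts (44.0 to 75.0) and at 0.31 on 30 counts (20.2 to 42.8). Btc, betacellulin, stood at 0.50 TPM on 39 counts (27.7 to 53.3) and at 0.26 on 17 counts (9.90 to 27.2). The counts of both were lower in replicate 2, a difference that did not pass the test between the libraries given below. Egf, the founding ligand of the family, stood at 0.90 TPM on 121 counts and at 0.50 on 56 counts (42.3 to 72.7). Nrg1, neuregulin 1, which binds ERBB3 and ERBB4, stood at 0.70 TPM on 39 counts (27.7 to 53.3) and at 0.77 on 36 counts (25.2 to 49.8). Means were 0.735 ± 0.0495 TPM for Nrg1, 0.70 ± 0.283 for Egf, 0.405 ± 0.134 for Ereg and 0.38 ± 0.170 for Btc. Neighbours in that order overlapped in the ranges of their libraries, so their order was within the spread. The counts of all 4 were above the limit of 3 in both libraries.

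Among the receptors, Egfr stood at 117 TPM in replicate 1 and 121 in replicate 2, a mean of 119 ± 3.05. In deposited TPM that was higher than 93.2% of protein-coding genes, a share not worked out on the other length scale given below. Erbb2 stood at 36.8 and 43.0 TPM (39.9 ± 4.41), and Erbb3 at 6.35 and 6.49 (6.42 ± 0.0990). On the deposited TPM the order of the genes was Egfr, Tgfa, Erbb2, Erbb3, Hbegf, Areg, Nrg1, Egf, Ereg, Btc. Egfr was clear of Tgfa, and the range of Tgfa overlapped that of Erbb2. Erbb2, Erbb3, Hbegf and Areg each stood clear of the next in rank, and from Nrg1 down neighbours overlapped.

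**Figure D1:**
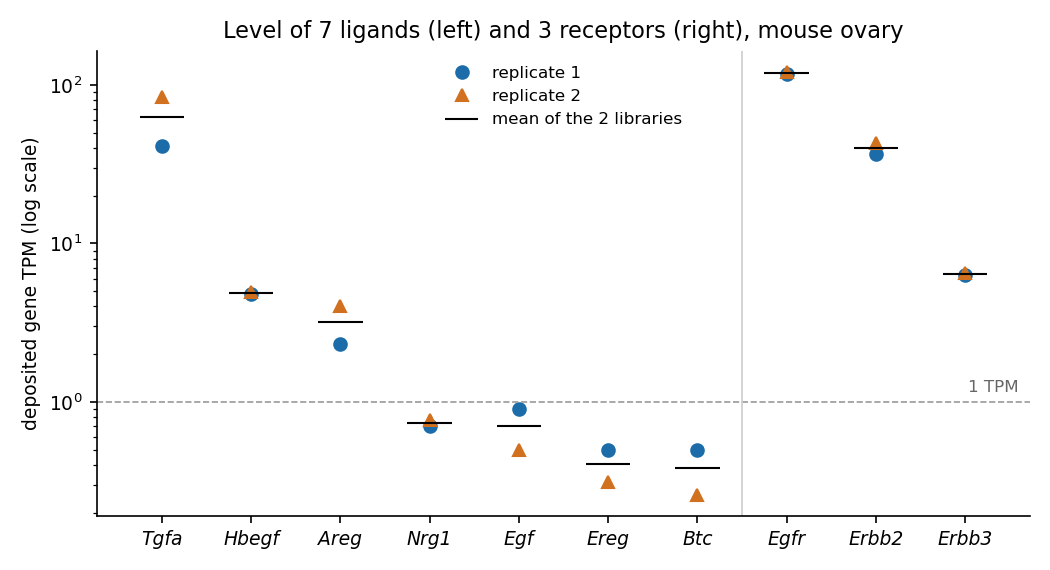
Deposited gene TPM (log scale) of the 7 ligands and 3 receptors in each library, with circles for replicate 1, triangles for replicate 2 and a bar at the mean; the dashed line is 1 TPM. Nrg1, Egf, Ereg and Btc lie under the line in both libraries, and Tgfa has the widest gap between libraries among the genes above it.

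The level of Egfr rested on a short transcript. Egfr-205 is 446 bases long and is typed as a processed transcript, with no coding region. Its 2 exons are 341 bases of the first exon of the full-length form Egfr-201 and a 105-base exon inside the first intron, at chr11:16793640-16793744. That second exon is what sets it apart from Egfr-201, and it is shown in full on the plus strand.
Egfr-205 exon 2: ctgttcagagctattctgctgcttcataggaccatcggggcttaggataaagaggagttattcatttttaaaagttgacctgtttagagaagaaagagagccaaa
Egfr-205 held 82.6% of the gene's TPM in replicate 1 and 75.4% in replicate 2, at 96.3 and 91.2 TPM. In counts it held 622.31 of 3772 in replicate 1 and 540.14 of 2892 in replicate 2, which are shares of 16.5% and 18.7%. The posterior SD of those counts, the deposited measure of doubt in assigning reads to transcripts, was 12.95 and 12.93.

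Egfr-201, of 10208 bases and 28 exons, encodes the whole receptor and held most of the counts: 2701.97 in replicate 1 and 1977.56 in replicate 2. Its level was 9.16 and 8.04 TPM, which was 7.86% and 6.65% of the gene's TPM. Egfr-202, of 2943 bases, has 16 exons and a coding region that is shorter than that of Egfr-201, 1965 against 3630 bases; it stood at 5.05 and 3.89 TPM. Egfr-203, of 463 bases, holds all or part of exons 13 to 15 of Egfr-201 and a further 104-base exon. It stood at 6.07 and 17.8 TPM on 42.27 and 112.78 counts, with posterior SDs of 10.75 and 9.98. Egfr-204 was listed at 0 in both libraries. By its full-length form alone Egfr stood above Erbb3 and below Erbb2 in both libraries, while the gene's TPM was the highest of the 10.

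Tgfa showed the same arrangement. Tgfa-202, of 410 bases, held 64.4% of the gene's TPM in replicate 1 and 80.9% in replicate 2, at 26.6 and 68.3 TPM, on 143.83 of 1435 and 344.13 of 1512 counts. It is typed as protein-coding, and its 4 exons are all or part of exons 1, 2, 3 and 6 of Tgfa-201. It skips exon 4, which carries the end of the EGF module, and no whole module was found in its coding region. The joint that marks it is shown with that of Tgfa-201; the 30 bases in lower case end exon 3, and the 25 in capitals are the first of the next exon used.
Tgfa-202 joint: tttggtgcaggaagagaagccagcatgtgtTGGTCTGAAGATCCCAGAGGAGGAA
Tgfa-201 joint: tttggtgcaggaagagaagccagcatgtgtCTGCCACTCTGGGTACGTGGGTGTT
Tgfa-201, the form with the whole module, is 4183 bases long in the deposited tables and held most of the counts, 1102.56 and 903.83. It stood at 9.43 TPM in replicate 1 and 9.24 in replicate 2, so the full-length form was level between the libraries while the gene's TPM was not. Tgfa-203, a processed transcript of 2119 bases, stood at 2.52 and 4.89 TPM, and Tgfa-204, another of 814 bases, at 2.75 and 1.87. A further transcript listed under Tgfa in the tables, which M21 assigns to the separate gene Gm43917, had 0 and 6 counts.

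Erbb2 differed from Egfr and Tgfa in that its full-length form led. The form of 5012 bases, which has 27 exons and encodes the whole receptor, held 84.2% of the gene's TPM in replicate 1 and 78.8% in replicate 2. A processed transcript of 4431 bases held 15.8% and 10.7%, on 718.95 and 478.04 counts with posterior SDs of 120.08 and 129.44. Another, of 388 bases, was listed at 0 in replicate 1 and held 10.5% of the TPM in replicate 2 on 20.27 counts, 0.450% of the gene's counts there. The other 7 genes had 1 transcript each in the deposited tables, so their TPM could not be split. For Nrg1 that is 1 transcript where M21 lists 18, and for Egf 1 where M21 lists 9. For Btc it is 1 where M21 lists 4, and for Hbegf 1 where M21 lists 3. Whether reads of the unlisted forms were missed in the levels of these genes was not tested.

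A leading transcript under 500 bases was found in Egfr and Tgfa, 2 of the 3 members with several transcripts. By the same rule it was found in 385 of 9237 protein-coding genes with several transcripts and mean counts of 100 or more, which is 4.17%. In those 385 genes the short form held a median of 57.5% of the gene's TPM and 14.3% of its counts, and 248 of the short forms were non-coding. The effective length that TPM divides by was 227.4 bases below the full length in replicate 1 and 205.1 below it in replicate 2 for long transcripts. For the 410 bases of Tgfa-202 it was 182.69 and 204.98 bases, so each of its counts weighed less in replicate 2 and it differed less between the libraries in TPM than in scaled counts. Whether these short forms are separate RNAs was not tested.

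**Figure D2:**
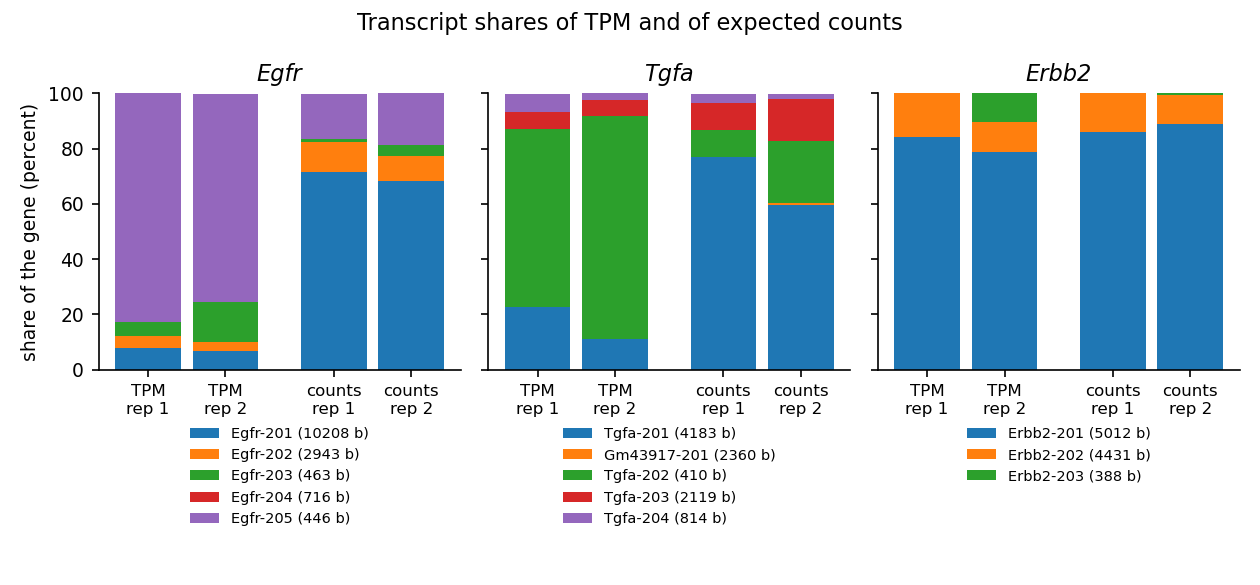
Share of each gene's TPM and of its expected counts (percent) by transcript, in each library, for Egfr, Tgfa and Erbb2, with transcript lengths in bases (b). The short forms Egfr-205 and Tgfa-202 fill most of the TPM bars and a minor part of the count bars, while the 5012-base form of Erbb2 leads in both.

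Because of this, levels were also set out per longest transcript, as gene counts over the effective length of the longest transcript, in units of TPM. On that scale, chosen after the data were seen, Egfr stood at 12.8 in replicate 1 and 11.8 in replicate 2, and Tgfa at 12.3 and 15.5. Erbb2 stood at 36.0 and 38.1 and was the highest of the 10. Egfr and Tgfa overlapped in the ranges of their libraries and were clear of Erbb2 above and Erbb3 below. The order of the other 7 genes was the same on both scales. Counting only transcripts of 500 bases or more gave 14.2 and 11.9 TPM for Egfr and 14.7 and 16.1 for Tgfa. Counting only those typed as protein-coding gave 20.3 and 29.7 TPM for Egfr and 36.1 and 77.5 for Tgfa, since Tgfa-202 and Egfr-203 carry that type.

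The balance within the family moved with the scale. On deposited TPM the 7 ligands summed to 51.0 TPM in replicate 1 and 95.2 in replicate 2, of which Tgfa made up 81.0% and 88.6%. Per longest transcript they summed to 22.0 and 26.3, of which Tgfa made up 55.8% and 58.8%. The 3 receptors summed to 160 and 170 TPM on the deposited scale, with Egfr at 73.0% and 71.0% of the sum. Per longest transcript they summed to 55.2 and 56.3, with Erbb2 at 65.3% and 67.6%. Tgfa was the leading ligand on both scales, and the leading receptor was Egfr on the first and Erbb2 on the second.

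**Figure D3:**
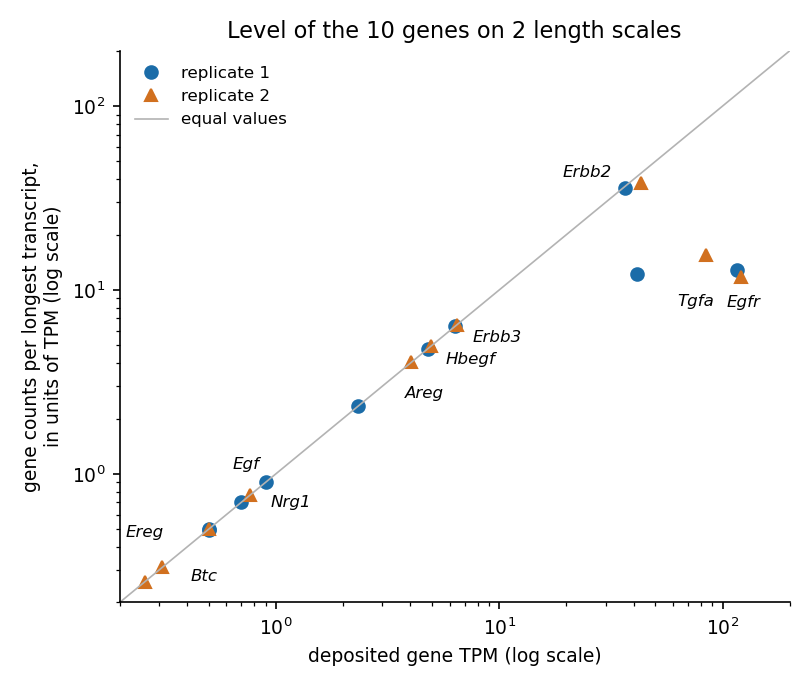
Deposited gene TPM against gene counts per longest transcript in units of TPM (both log scales) for the 10 genes, with circles for replicate 1 and triangles for replicate 2. Egfr and Tgfa fall below the line of equal values, Erbb2 lies on or just under it, and the 7 genes with 1 transcript lie on it.

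Replicate 2 was compared with replicate 1 on rounded expected counts scaled by TMM, with an exact binomial test of the reads of these 2 libraries, not of conditions. Of the 10 genes, 5 passed at a Benjamini-Hochberg adjusted p of 0.05 over all genes, against 56.1% of the 15939 genes tested. Areg, Tgfa and Erbb2 were higher in replicate 2 (3 of 10, against 29.1% of genes), and Egf and Egfr were lower (2 of 10, against 27.0%). These shares are near those of all genes. The share of calls that were higher was 51.9% over all genes, 40.5% when libraries were scaled by their total count and 9.08% when scaled by the spike-in total, which lowered the median ratio of all genes by 0.43 on the log2 scale.

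Areg was 1.80-fold higher in replicate 2 by the exact binomial test (log2 ratio 0.85, counting SE 0.23, adjusted p = 0.000440), and higher under every scaling tried, although not past the test with the spike-in total (adjusted p = 0.0772). Egf was lower at 0.573 times its level in replicate 1 (log2 ratio -0.80, SE 0.23, adjusted p = 0.000943 in the exact binomial test), in the same direction under every scaling. Btc had a ratio of 0.549 (log2 -0.86, SE 0.42, adjusted p = 0.0553, exact binomial test) and Ereg a ratio of 0.643 (log2 -0.64, SE 0.32, adjusted p = 0.0880), and neither passed. Both passed as lower with the spike-in total (adjusted p = 0.00171 for Btc and 0.00126 for Ereg in the exact binomial test), and Btc also with the total count (0.0389). These 4 low ligands were the members over 1.5-fold apart, 4 of 10, against 15.3% of genes tested. Their counts were 17 to 121, the lowest of the 10 with those of Nrg1. The other 6 genes were within 1.5-fold.

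Tgfa was 1.296-fold higher in replicate 2 by scaled counts (log2 ratio 0.37, SE 0.05, adjusted p = 1.12e-11 in the exact binomial test) and at -0.06 with the spike-in total. In deposited TPM it was 2.04-fold higher. The difference lay in particular transcripts: the scaled count of Tgfa-201 had a ratio of 1.01, that of Tgfa-202 2.93 and that of Tgfa-203 2.00. These ratios between transcripts carry no test. Erbb2 was 1.09-fold higher (log2 ratio 0.12, SE 0.03, adjusted p = 0.000145, exact binomial test), and with the spike-in total it was at -0.31. With the total count it did not pass (adjusted p = 0.0926, exact binomial test).

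Egfr was at 0.943 times its level in replicate 1 by scaled counts (log2 ratio -0.08, SE 0.04, adjusted p = 0.0346, exact binomial test), but its TPM was 1.04-fold higher in replicate 2. With DESeq2 size factors the adjusted p was 0.0503, so the call did not hold there. By transcript, the scaled count ratio was 0.901 for Egfr-201, 0.794 for Egfr-202, 1.07 for Egfr-205 and 3.22 for Egfr-203. These ratios carry no test and leave out the doubt in assigning reads to transcripts. Hbegf (1.07-fold, 95% counting interval 0.905 to 1.26), Nrg1 (1.13-fold, 0.720 to 1.78) and Erbb3 (1.05-fold, 0.962 to 1.15) did not pass the test. The intervals hold for the TMM scaling and cover counting error only. With the spike-in total Hbegf (log2 ratio -0.34, adjusted p = 0.00759, exact binomial test) and Erbb3 (-0.36, adjusted p = 3.71e-08) passed as lower.

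**Figure D4:**
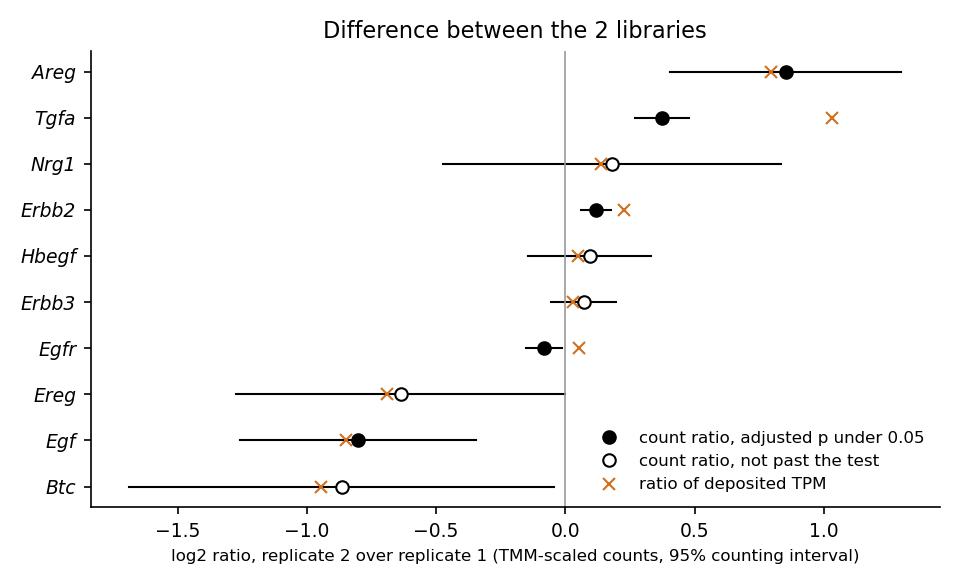
Log2 ratio of replicate 2 over replicate 1 for each gene, from TMM-scaled counts with the 95% counting interval (filled circles passed the exact binomial test, open circles did not), and from deposited TPM (crosses). Crosses fall inside the intervals except for Tgfa, Erbb2 and Egfr, the 3 genes with several transcripts; with the spike-in total the count ratios of Tgfa, Erbb2, Hbegf, Nrg1 and Erbb3 turn negative.

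The rest of the family was mostly low. Nrg2, a neuregulin, stood at 14.9 and 20.5 TPM on 1224 and 1406 counts, above every ligand followed here except Tgfa; per longest transcript it stood at 14.9 and 20.5, above Tgfa in each library (12.3 and 15.5), with ranges that overlapped. It had a log2 ratio of 0.50 (SE 0.06, adjusted p = 5.85e-18 in the exact binomial test; below 0 with the spike-in total). Nrg4 stood at 4.09 and 3.27 TPM, of which protein-coding transcripts held 0.85 and 0. That split is uncertain: the coding form Nrg4-213 had 42.83 and 0 counts, with posterior SDs of 18.35 and 9.48. Epgn, epigen, had 0 and 1 counts, and Nrg3 had 1 and 3, at or under the limit that a count of 0 allows. Erbb4, the fourth receptor and one that neuregulins bind, had 14 counts (7.65 to 23.5) and 16 counts (9.15 to 26.0), or 0.04 and 0.06 TPM.

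Genes that release the ligands were present. The 10 sheddases and their partners had a list median of 26.2 TPM, against 4.45 over all protein-coding genes. Of the 10, 9 reached 1 TPM in both libraries, against 62.0% of protein-coding genes. Between the libraries 3 were higher in replicate 2, 2 were lower and 5 did not pass the exact binomial test, near the 29.1% higher and 27.0% lower of all genes tested, with a median log2 ratio of 0.05 against -0.0056 over all genes tested. With the spike-in total these counts were 0 higher and 8 lower. Adam17, the main sheddase of Areg, Ereg, Hbegf and Tgfa, stood at 16.1 and 16.2 TPM. Adam10, which releases Egf and Btc, stood at 16.1 and 56.3 TPM, although its counts, 1433 and 1590, differed far less, and its leading transcript was 623 bases long. Rhbdf1 and Rhbdf2, inactive rhomboid proteins that escort ADAM17 to the cell surface, stood at 243 ± 43.0 and 90.1 ± 0.580 TPM. Adam15 stood at 171 ± 1.47 and Bace1 at 48.0 ± 0.0283. The lowest was Rhbdl2, a rhomboid protease, at 0.84 ± 0.0707 TPM.

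All 16 genes of ErbB restraint and turnover reached 1 TPM in both libraries, against 62.0% of protein-coding genes, with a list median of 13.1 TPM. In replicate 2, 11 were higher and 3 lower by the exact binomial test, beside 29.1% and 27.0% of all genes tested, with a median log2 ratio of 0.20 beside -0.0056, and with the spike-in total 1 was higher and 13 lower. Errfi1, a feedback inhibitor of EGFR that the receptor itself induces, stood at 28.7 and 32.5 TPM. Lrig1, a membrane protein that promotes loss of ErbB receptors, stood at 52.6 and 62.4. Ptpn1, a tyrosine phosphatase that acts on EGFR, was the highest at 74.1 ± 8.53 TPM. Spry1, a Sprouty inhibitor of Ras-MAPK signalling, stood at 40.8 ± 1.75, and Rnf41, the ubiquitin ligase of ERBB3, at 40.5 ± 4.02. Socs4 was the lowest, at 1.76 ± 0.382 TPM.

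The 20 genes of the adaptors and of the Ras-MAPK and PI3K relay had a list median of 44.7 TPM. All 20 reached 1 TPM in both libraries, against 62.0% of protein-coding genes. In replicate 2, 5 were higher and 9 lower by the exact binomial test, beside 29.1% and 27.0% of all genes tested, with a median log2 ratio of -0.05 beside -0.0056. Scaling by total count gave 2 higher and 12 lower, and the spike-in total 1 and 18. Map2k2, a MAPK kinase, was the highest at 272 ± 55.3 TPM, followed by Akt1 at 236 ± 3.28 and Mapk3 (ERK1) at 227 ± 34.5. Plcg1, a phospholipase that docks on activated EGFR, stood at 135 ± 28.2 TPM with a leading transcript of 449 bases, also under 500. Sos1, the exchange factor that Grb2 brings to the receptor, was the lowest at 2.005 ± 0.0778 TPM.

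Other genes of ovulation stood at different levels. The list called upstream here holds 6 genes: Lhcgr, Pgr, Creb1 and Prkaca, with Nppc and Npr2 of oocyte arrest. The name is a label, and whether each gene acts before the ligands was not tested. All 6 reached 1 TPM in both libraries, against 62.0% of protein-coding genes, with a list median of 61.6 TPM. Of these 4 were higher and 1 lower in replicate 2 by the exact binomial test, beside 29.1% and 27.0% of all genes tested, with a median log2 ratio of 0.34. With the spike-in total 3 were higher and 3 lower, where 9.08% of the calls over all genes were higher. Lhcgr, the receptor of luteinizing hormone, stood at 91.2 and 150 TPM. Pgr, the progesterone receptor, stood at 23.96 and 68.04 TPM, with a log2 ratio of 1.54 (SE 0.04). Nppc and Npr2, the natriuretic peptide and the receptor that hold the oocyte in arrest, stood at 53.6 ± 12.8 and 108 ± 5.10. Prkaca, the catalytic subunit of protein kinase A, stood at 69.5 ± 9.28 and Creb1, the factor it activates, at 25.5 ± 1.48.

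The 6 genes that EGFR signalling induces in the cumulus had a list median of 1.06 TPM, against 4.45 over all protein-coding genes. Of these, 3 reached 1 TPM in both libraries, against 62.0% of protein-coding genes. Of the 4 with enough counts to test, 2 were higher and 0 lower in replicate 2 by the exact binomial test, beside 29.1% and 27.0% of all genes tested, although their median log2 ratio was -0.07. The other 2 had negative ratios that did not pass. Scaling by total count gave 1 higher and 0 lower, and with the spike-in total 1 was higher and 3 lower. Ptger2, a prostaglandin E receptor, was the highest at 9.17 and 10.3 TPM, followed by the matrix protein Ptx3 at 2.53 and 4.95 and the hyaluronan cross-linker Tnfaip6 at 1.62 and 1.08. Ptgs2, which makes prostaglandins, stood at 0.88 and 0.67, and Has2, which makes hyaluronan, at 0.15 and 0.10 TPM on 18 and 10 counts. Il6 had 3 and 0 counts. In the same libraries Areg, Ereg and Btc stood between 0.26 and 4.05 TPM.

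**Figure D5:**
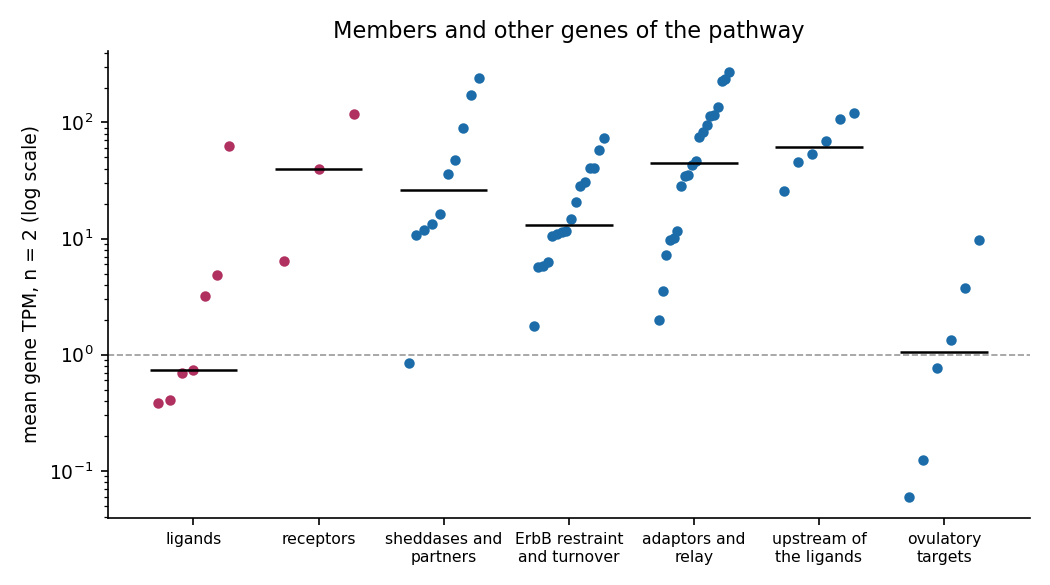
Mean gene TPM over the 2 libraries (log scale) of the ligands, the receptors and the genes of 5 pathway lists; each point is a gene, bars are list medians and the dashed line is 1 TPM. The ligands (median 0.735) and the ovulatory targets (1.06) are the lists with medians near 1 TPM. The list labelled upstream, which includes Nppc and Npr2 of oocyte arrest, is the highest at 61.6.

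Cell type markers were present in both libraries. For granulosa, oocyte, theca and interstitial cells, and surface and other epithelium, 5 of 5 each reached 1 TPM. So did 3 of 3 oviduct markers, 4 of 4 each for stroma, endothelium, macrophage and adipocyte, and 4 of 6 Schwann cell and nerve markers. The share of all protein-coding genes was 62.0%, and no marker was listed at 0. Between the libraries, markers are counted as higher or lower in replicate 2 by the exact binomial test, beside 29.1% and 27.0% of all genes tested. Summed TPM of the epithelial markers was 615 in replicate 1 and 829 in replicate 2, with 5 of 5 higher (3 higher and 1 lower with the spike-in total). For adipocyte markers it was 2405 and 3163 with 4 of 4 higher (1 higher and 2 lower with the spike-in total), and for nerve 68.0 and 119 with 3 of 6 higher and 2 lower (2 and 3 with the spike-in total). Granulosa markers summed to 7777 and 6690.5 TPM, with 2 of 5 higher and 3 lower. Oocyte markers summed to 405 and 317 with 4 of 5 lower. Theca and interstitial markers summed to 4084 and 3505 with 4 of 5 lower and Cyp11a1 higher. Stroma markers summed to 640 and 547 with 1 of 4 higher and 3 lower, and oviduct markers to 764 and 685 with 1 of 3 higher and 2 lower. Endothelial markers summed to 103 and 91.9 with 2 of 4 lower, and macrophage markers to 174 and 154 with 2 of 4 lower. With the spike-in total all markers of these last 7 lists were lower. In whole tissue, fewer cells of a type and less RNA per cell cannot be told apart. The part of these shifts in the differences of Areg, Egf, Tgfa, Erbb2 and Egfr between the libraries was not tested.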

How the data were processed

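Polyadenylated RNA of whole mouse ovary was measured in 2 libraries of 1 group. The authors deposited, per gene and per transcript, expected counts (estimated read pairs, not always whole), TPM and FPKM, and for transcripts the percent of the gene's TPM, with posterior means and posterior SDs. Build mm10 and GENCODE M4 are given per the notes deposited with the files; the aligner and the quantifier were not given in the sources used here. Names and coordinates came from GENCODE M21 on the same build, which matched 42462 of 43346 mouse identifiers. Spike-ins took 0.764% of counts in replicate 1 and 0.986% in replicate 2 and entered no library size or test, except in an alternative scaling. The mm9 junction and contig tables were not used here.

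Counts were rounded and kept at a mean of at least 20, then scaled by TMM (edgeR 4.0.16, R 4.3.3). Log2 ratios used a prior count of 1. With 1 library a side edgeR's quasi-likelihood test has no residual degrees of freedom, so a two-sided exact binomial test (scipy 1.17.1) with Benjamini-Hochberg adjustment over all genes at 0.05 was used. It was tried on simulated counts that held counting error only, with 200 genes changed by known folds. Because the simulation had no other variation between libraries, it cannot give the error rate of the test here. DESeq2 1.42.0 gave alternative size factors. Other alternatives were low-count filters, prior counts, posterior means, TPM thresholds and each library alone. The members, lists and tests were chosen with earlier results of these data known. Named were all 10 members, each gene of a list of up to 6, the 4 highest and the lowest by mean TPM of longer lists, and Errfi1, Lrig1, Adam17 and Adam10; the transcripts named reach 10 percent of a gene or were named after their values were seen. Figures used matplotlib 3.10.9.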

Additional observations from a re-analysis of the deposited data

How the results depend on the processing

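Of the 10 genes, 5 passed the exact binomial test between the libraries; 1 passed with Bonferroni adjustment (Tgfa) and 3 when a mean count of at least 100 was required, which left Areg, Egf and the other low ligands untested. The spike-in total gave 7, all lower in replicate 2 (Ereg, Btc, Hbegf, Egf, Egfr, Erbb2 and Erbb3), and Areg and Tgfa did not pass. The number of genes over 1.5-fold apart, 4 by scaled counts, became 0 at 2-fold. It was 2 on log2(TPM + 1), a scale that shrinks differences of low genes. Those were Areg (0.60) and Tgfa (1.01), which was within 1.5-fold by scaled counts. Egf (-0.34), Btc (-0.25) and Ereg (-0.20) no longer passed 1.5-fold there. Directions reversed with the spike-in total, which shifts all genes, for Hbegf (log2 ratio -0.34), Tgfa (-0.0599), Nrg1 (-0.24), Erbb2 (-0.31) and Erbb3 (-0.36), and on the TPM scale for Egfr (0.05205 with a pseudocount of 1 and 0.05245 with 0.1). Genes with a leading transcript under 500 bases numbered 2, 0 when the length was set at 300 bases (chosen after the data were seen) and 0 when transcripts were ranked by expected counts, by which the short forms held a mean of 17.6% of Egfr and 16.4% of Tgfa. In all, 45 of 51 alternatives for counts of genes were within 1.5 times the value reported. Most of the 51 were detection thresholds of the pathway and marker lists, which all stayed within it. The 6 that did not all concerned the 10 genes, so the tally says little about those. Detection was 6 of 10 at 1 TPM, with either library alone and at 2 TPM, and 8 at 0.5 TPM, and counts of 121 or fewer limit the low ligands. No paired analysis was possible because the 2 libraries are 1 group and share no replicate number across groups.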
